A study of Sus scrofa with 12 samples.

Results

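Landrace and Yorkshire are white pig breeds that are widely crossed to produce commercial sows, and this comparison covers the endometrium of pregnant sows of either breed. The members were the 6 pregnant sows among the 12 sows of the study, 3 labelled Landrace (LL) and 3 labelled Yorkshire (YY). All were inseminated and sampled on Day 14. The other 6 sows, 3 of each breed, received inactivated semen and were not pregnant. Per the labels, both uterine horns were flushed before the endometrium, without its muscle layer, was taken from 3 positions along each horn. RNA of each sow was hybridised to 1 Affymetrix porcine array. Pregnant Landrace sows carry the numbers 6, 8 and 10 in the labels and pregnant Yorkshire sows the numbers 2, 4 and 12. Values of the 3 sows of a breed are given below in those orders. The labels give no age, parity, litter or farm, so breed and any such difference between these sows cannot be told apart.

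On Day 14 the pig conceptus is a long filament that has signalled its presence with oestrogens and is beginning to attach to the luminal epithelium. Its trophectoderm then secretes interferon gamma, encoded by IFNG, and the endometrium answers with secretions called histotroph and with a redirected release of prostaglandins. Prostaglandin F2 alpha ends the life of the corpus luteum when it reaches the ovary, so its synthesis, its receptor PTGFR and its partner prostaglandin E2 are central to the maintenance of pregnancy.

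The arrays had deposited log2 expression values for 23999 probe sets, AFFX controls left out, and the array medians of the 6 pregnant sows lay between 6.28 and 6.30. A general marker of epithelium and 1 of stroma were high in all 6 pregnant sows, though neither is specific to endometrium. EPCAM, an epithelial adhesion molecule, lay between 11.13 and 11.63 and DCN, a stromal proteoglycan, between 12.44 and 12.96. Pregnant sow 12 stood apart from the other pregnant Yorkshire sows. The array closest to it was that of non-pregnant sow 11 (r = 0.992 across probe sets, which are not independent). S100A9, which encodes a calcium-binding protein of neutrophils and epithelia, was at 12.06, 12.19 and 12.13 in Landrace and at 12.56, 12.79 and 7.72 in Yorkshire pregnant sows, and non-pregnant sows had 3.16 to 9.35. Sow 12 was thus the lowest pregnant sow for S100A9. Pregnant Landrace sow 8 was closest to non-pregnant sow 5 (r = 0.983). The difference between the 3' and 5' GAPDH control probe sets, which grows with RNA degradation, was 0.47, 0.45 and 0.54 in Landrace and 0.60, 0.77 and 0.76 in Yorkshire sows. The breeds did not overlap in this difference (-0.225, exact permutation p = 0.10, two-sided, the smallest p that 3 against 3 sows allow). A fit with it as a covariate is given beside the counts of calls.

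Breed differences were called for 51 of 23999 probe sets (0.213%), of which 16 were higher (0.0667%) and 35 lower (0.146%) in Landrace. A call means an adjusted p under 0.05 in limma. Of these probe sets 19 had a single gene symbol and 32 had none. With 1 probe set standing for each of 6765 genes, 13 genes were called (0.192%), 2 higher in Landrace (PTGFR and FAM107B) and 11 lower (LOC100158115, RHOQ, SLC7A9, ACOT7, EGLN1, FDFT1, PRR15, MPP7, CHD7, KIF5C and SON). The called differences lay between 0.77 and 2.67 upwards and between -0.76 and -6.38 downwards on the log2 scale, against a median of 0.02 over all probe sets. An unadjusted p under 0.05 was reached by 2694 probe sets (11.2%). The number of calls depended on single sows. It was 1 without sow 6, 2 without sow 10, 2 without sow 2 and 11 without sow 4. It was 75 without sow 12, of which 31 were among the 51, and 44 without sow 8, of which 22 were. A fit over all 12 sows in 4 groups, which shares 1 estimate of the spread, called 176 probe sets (0.733%), 40 of them among the 51. With the GAPDH difference added to that fit, 4 probe sets were called, 3 of them among the 51, and PTGFR was the single gene of the 13 still called. The GAPDH difference itself separated the breeds in pregnant and in non-pregnant sows. This fit therefore cannot tell breed and the GAPDH difference apart.

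**Figure D1:**
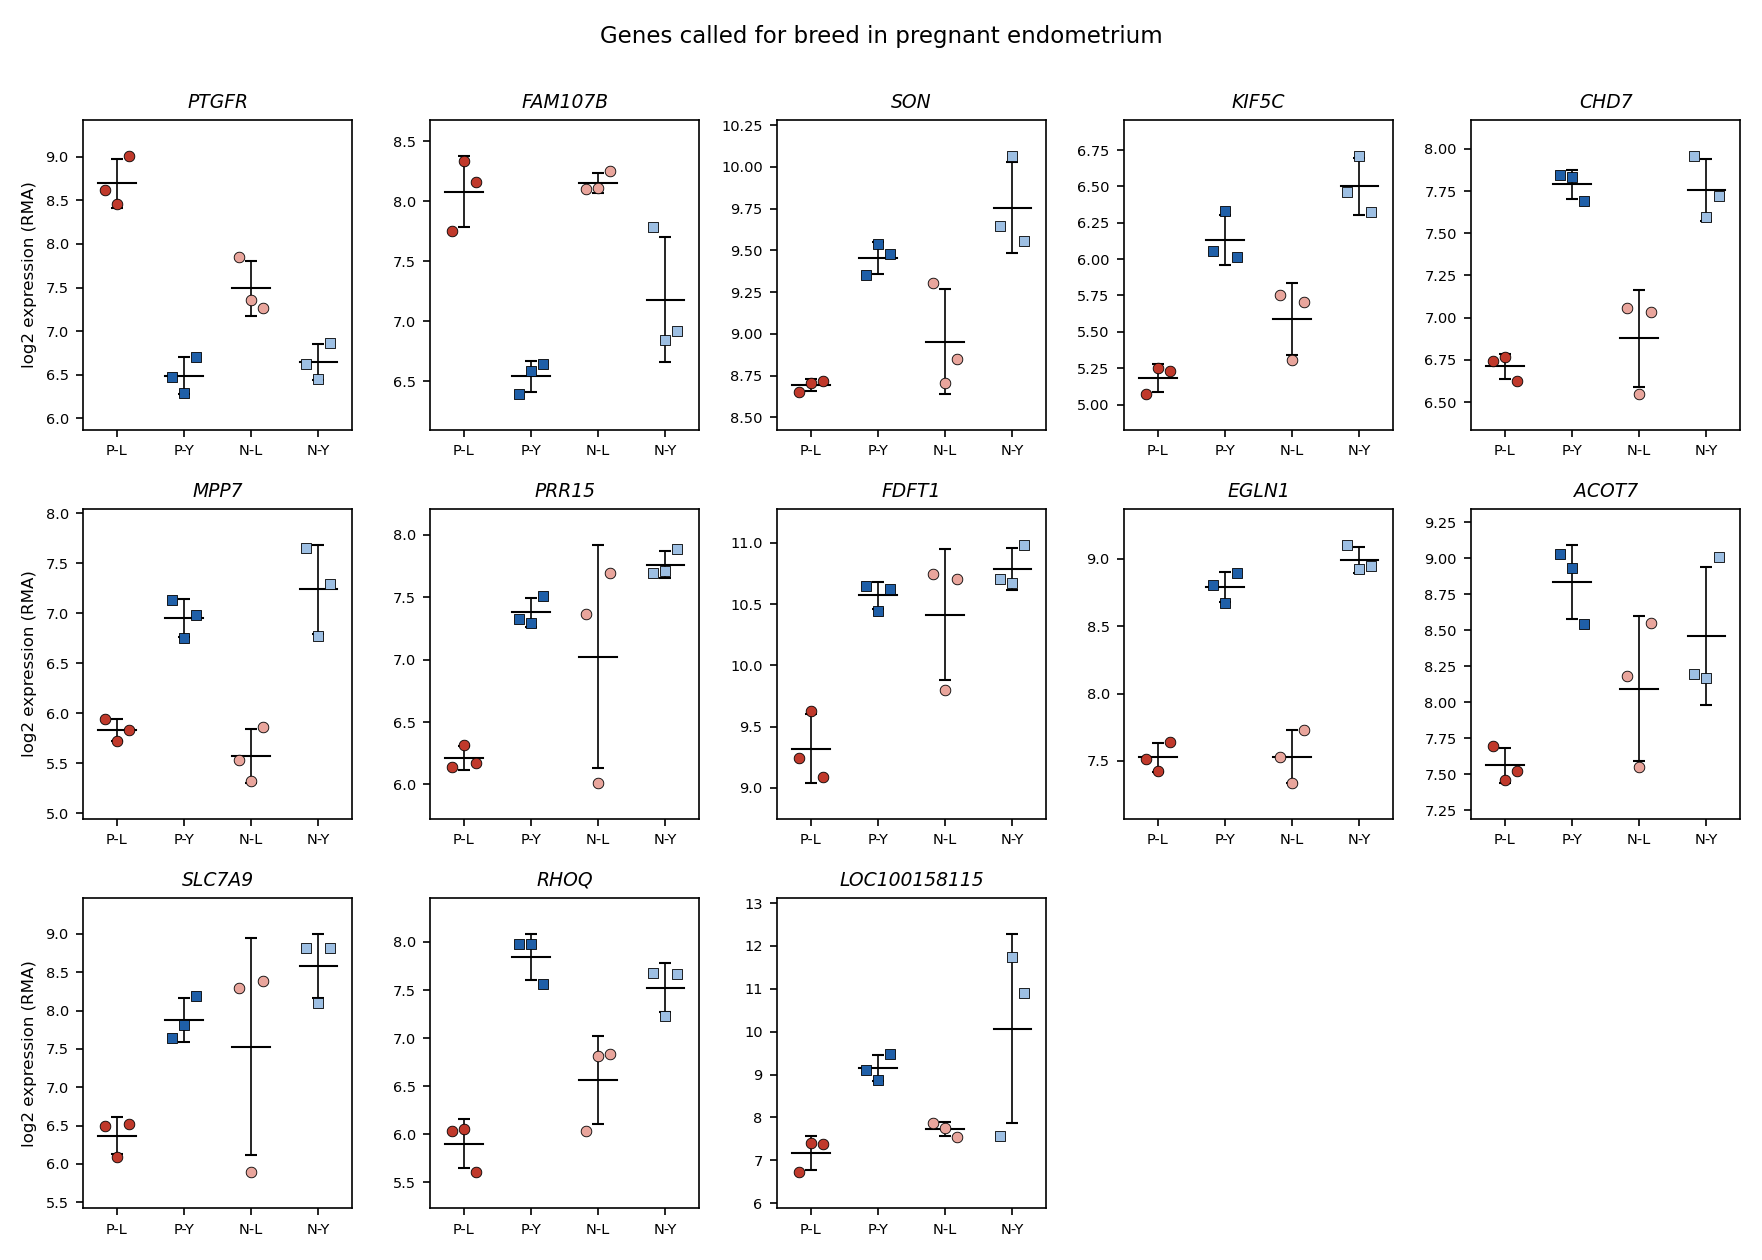
The 13 genes called for breed in pregnant endometrium, each in its own panel. The vertical axes show log2 expression (RMA) with a separate range for each gene, points are single sows (P-L pregnant Landrace, P-Y pregnant Yorkshire, N-L and N-Y the non-pregnant sows of each breed), horizontal bars are means and whiskers are ± 1 SD with n = 3. Pregnant Landrace and pregnant Yorkshire sows do not overlap in any panel, and among non-pregnant sows the breeds overlap for 5 of the 13 genes.

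PTGFR, the receptor for prostaglandin F2 alpha, had the largest difference of the called genes that were higher in Landrace. Its log2 expression was 8.62, 8.46 and 9.01 in Landrace and 6.47, 6.29 and 6.71 in Yorkshire pregnant sows. Every Landrace sow lay above every Yorkshire sow, by more than the spread within either breed. The means were 8.70 ± 0.28 and 6.49 ± 0.21 (SD, n = 3 each), and the difference was 2.21 ± 0.18 (SE, limma adjusted p = 0.0188). In non-pregnant sows the difference was 0.85 ± 0.18 and was not called (adjusted p = 0.102), with breeds that did not overlap. PTGFR was the single named gene still called with the GAPDH covariate (adjusted p = 0.0488). The call was lost without sow 2, 4, 6 or 10, with adjusted p up to 0.0936. A second PTGFR probe set, at a level of 4.02 to 4.15 where arrays hold mostly background, differed by 0.13.

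The other 8 measured genes of the prostaglandin list were not called. PTGES, the inducible prostaglandin E synthase, was at 6.71, 6.91 and 7.04 in Landrace and at 7.50, 7.55 and 8.16 in Yorkshire sows. The breeds did not overlap, as for 17.5% of all genes, but the difference of -0.85 ± 0.20 did not pass the test (adjusted p = 0.171). PTGS2, the inducible cyclooxygenase that feeds both synthases, overlapped between the breeds, with a difference of 0.31. The median over the 9 prostaglandin genes was 0.02, against 0.01 over all 6765 genes.

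FAM107B was the other gene called higher in Landrace. It was at 7.75, 8.33 and 8.16 in Landrace and at 6.39, 6.58 and 6.64 in Yorkshire sows, a difference of 1.54 ± 0.17 (adjusted p = 0.0296). The lowest Landrace value stood more than 1 log2 unit above the highest Yorkshire value. Its second probe set differed by 0.34, with overlapping breeds, and the call was lost without sow 2, 4, 6, 8 or 10 (adjusted p up to 0.150).

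Among the 11 genes lower in Landrace, EGLN1 encodes the prolyl hydroxylase that marks hypoxia-inducible factors for destruction when oxygen is present. EGLN1 was at 7.52, 7.43 and 7.64 in Landrace and at 8.81, 8.68 and 8.89 in Yorkshire pregnant sows. The sows of each breed lay within 0.22 of each other, and the breeds were more than 1 log2 unit apart. The difference was -1.26 ± 0.11 (adjusted p = 0.0206), and in non-pregnant sows it was -1.46 ± 0.13 and called as well (adjusted p = 0.0102). The call in pregnant sows was lost without sow 2, 4, 6 or 10, with adjusted p up to 0.112. The 2 other EGLN1 probe sets differed by -0.15 and -0.11 with overlapping breeds.

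RHOQ, a small GTPase that acts in insulin-stimulated glucose uptake and in actin organisation, was at 6.04, 6.06 and 5.61 in Landrace and at 7.98, 7.98 and 7.57 in Yorkshire sows. The difference was -1.94 ± 0.17 (adjusted p = 0.0212). MPP7, a scaffold protein of epithelial cell junctions and polarity, was at 5.94, 5.72 and 5.83 against 7.13, 6.75 and 6.98. Its difference of -1.13 ± 0.13 (adjusted p = 0.0342) stood beside a called difference of -1.67 ± 0.24 in non-pregnant sows (adjusted p = 0.0381). KIF5C, a kinesin heavy chain that moves cargo along microtubules, was at 5.07, 5.25 and 5.23 against 6.06, 6.33 and 6.01, a difference of -0.95 ± 0.12 (adjusted p = 0.0466). Neither breed's range touched the other's in these 3 genes. The RHOQ call was lost without sow 2, 4, 6 or 10 and the MPP7 and KIF5C calls without any 1 of the 6 sows, with adjusted p up to 0.112, 0.171 and 0.193.

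SLC7A9 and ACOT7 encode a transporter subunit and an enzyme. SLC7A9, the light subunit of a transporter of cystine and basic amino acids, was at 6.49, 6.09 and 6.51 in Landrace and at 7.64, 7.81 and 8.18 in Yorkshire sows (difference -1.51 ± 0.18, adjusted p = 0.0397). ACOT7, which hydrolyses long-chain acyl-CoA, was at 7.70, 7.46 and 7.52 against 9.03, 8.93 and 8.54 (difference -1.27 ± 0.15, adjusted p = 0.0390). In both genes the lowest Yorkshire sow stood above the highest Landrace sow. Both calls were lost without sow 2, 4, 6, 8 or 10, with adjusted p up to 0.150 for SLC7A9 and 0.179 for ACOT7. Neither gene was called in the fit over all 12 sows (adjusted p = 0.256 and 0.0667).

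CHD7, a chromatin remodelling enzyme, and SON, a protein of nuclear speckles needed for RNA splicing, act in the nucleus. CHD7 was at 6.75, 6.77 and 6.63 in Landrace and at 7.85, 7.83 and 7.69 in Yorkshire sows (difference -1.08 ± 0.10, adjusted p = 0.0214). SON was at 8.65, 8.71 and 8.72 against 9.35, 9.54 and 9.48 (difference -0.76 ± 0.10, adjusted p = 0.0466). The within-breed spread of both genes was below 0.2 in either breed. The CHD7 call was lost without sow 2, 4, 6 or 10 (adjusted p up to 0.121) and the SON call without any 1 sow (up to 0.199). Other probe sets of SON differed by 0.33, -0.45 and -0.15 and those of CHD7 by -0.54 and -0.15, none of them called.

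PRR15 and LOC100158115 completed the called genes. PRR15 was at 6.14, 6.32 and 6.17 in Landrace and at 7.33, 7.30 and 7.51 in Yorkshire sows (difference -1.17 ± 0.11, adjusted p = 0.0214). LOC100158115 was at 6.72, 7.40 and 7.39 against 9.10, 8.88 and 9.48 (difference -1.99 ± 0.23, adjusted p = 0.0360). Both were lower in all 3 Landrace sows, yet neither was called in the fit over all 12 sows, which gave adjusted p of 0.139 and 0.329. The PRR15 call was lost without sow 2, 4, 6 or 10 (adjusted p up to 0.118) and the LOC100158115 call without any 1 sow (up to 0.138). With the GAPDH covariate the LOC100158115 difference was -0.29. In non-pregnant Yorkshire sows LOC100158115 was at 7.57, 11.74 and 10.90, and the breeds overlapped there.

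Called probe sets that did not stand for their gene named 5 further symbols. CD55 encodes decay-accelerating factor, which shields cells from complement. It had 2 of 5 probe sets called higher in Landrace, by 1.62 ± 0.20 and 1.39 ± 0.16, and the same 2 were called in non-pregnant sows, by 1.88 and 1.37. The other 3 CD55 probe sets were higher by 0.47 to 0.64 and not called. For GLUL, glutamine synthetase, 1 of 3 probe sets was called lower, with 8.15, 7.91 and 8.35 in Landrace against 10.29, 9.79 and 10.65 in Yorkshire sows (difference -2.11 ± 0.23). The GLUL probe set with the highest level differed by -0.87 (adjusted p = 0.172). VPS26A, a retromer subunit, had 1 probe set called higher by 1.13, and TXNRD1, thioredoxin reductase, and KTN1, kinectin, had 1 each called lower by -1.38 and -0.89. In VPS26A, TXNRD1 and KTN1 the probe set with the highest level was not called.

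The widest differences belonged to probe sets without a gene symbol. Probe set Ssc.30507.1.A1_at was at 3.64, 3.0 and 3.16 in pregnant Landrace and at 10.23, 8.23 and 10.50 in pregnant Yorkshire sows. Its difference was -6.38 ± 0.56 (adjusted p = 0.0206), and in non-pregnant sows it was -7.56 and called. Probe set Ssc.31143.1.A1_at behaved alike, at 5.18, 5.36 and 5.32 against 11.93, 10.32 and 11.97 (difference -6.12 ± 0.42, and -7.13 in non-pregnant sows, both called). Landrace values of the first lay below the lower quartile of the arrays (4.59 to 4.71), where a value holds mostly background. Sow 4 was the lowest Yorkshire sow in both. In the other direction Ssc.26472.1.A1_at was at 6.50, 6.76 and 6.89 against 4.00, 4.17 and 3.98, a difference of 2.67 ± 0.13 (adjusted p = 0.00306). It remained the 1 call without sow 6 and the 1 call at an adjusted p under 0.01. Its Yorkshire values also lay below the lower quartile of the arrays, so the size of its difference is uncertain.

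Some genes with wide breed differences did not pass the test. WFDC2, a secreted protease inhibitor, was at 11.75, 11.24 and 11.28 in Landrace and at 8.09, 8.97 and 10.53 in Yorkshire sows. Sow 12 lay closest to the Landrace sows. The difference of 2.22 ± 0.55 was not called (adjusted p = 0.201), and without sow 12 it was 2.89 (adjusted p = 0.0334). AGT, the precursor of angiotensin, was at 10.48, 9.35 and 10.27 against 8.72, 7.94 and 7.57 (difference 1.95 ± 0.37, adjusted p = 0.120). The other 6 genes with the largest uncalled higher values, at an unadjusted p under 0.01 and without overlap, were TMEM26 (1.62), PTP4A2 (1.51), STOX1 (1.50), VMO1 (1.25), DDO, the oxidase of D-aspartate (1.20), and KMO, kynurenine monooxygenase (1.19). Second probe sets of WFDC2, PTP4A2 and VMO1 differed by -0.22, -0.05 and -0.15. Chosen after its values were seen, C1QTNF3 was at 3.13, 4.79 and 3.61 against 7.49, 6.78 and 9.39 (difference -4.04 ± 0.70, adjusted p = 0.0952), and its difference was -4.55 in non-pregnant sows. Sows 6 and 10 lay below the lower quartile of the arrays, where a value holds mostly background, so the size of this difference is uncertain. RAB26, a vesicle GTPase chosen the same way, was at 6.20, 6.29 and 5.97 against 9.13, 7.97 and 10.93 (difference -3.19, adjusted p = 0.133).

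Of 6 enzymes of cholesterol synthesis described here, 1 was called lower in Landrace. The other 5 were chosen after their values were seen, so their values are a description. FDFT1, squalene synthase, which commits isoprenoids to sterols, was at 9.24, 9.63 and 9.09 in Landrace and at 10.65, 10.44 and 10.63 in Yorkshire sows. The difference was -1.25 ± 0.16 (adjusted p = 0.0453) and the breeds did not overlap. The call was lost without sow 2, 4, 6, 10 or 12, with adjusted p up to 0.171. Neighbouring enzymes were not called. FDPS, which makes the farnesyl diphosphate that FDFT1 uses, was at 8.77, 9.77 and 9.37 against 10.94, 10.66 and 11.45 (difference -1.71 ± 0.29, adjusted p = 0.0897). SQLE, squalene epoxidase, was at 6.70, 6.36 and 6.79 against 8.0, 7.63 and 8.40 (difference -1.39 ± 0.21, adjusted p = 0.0764), and the fit over all 12 sows called it (adjusted p = 0.0140). HMGCS1, near the start of the pathway, differed by -0.79 ± 0.30 and HSD17B7, a late step that also reduces oestrone, by -1.07 ± 0.26. SC5D, another late enzyme, differed by -0.16 with overlapping breeds.

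In non-pregnant sows 5 of the sterol genes had smaller breed differences. Their breed differences were -0.37 for FDFT1, -0.41 for FDPS, -0.09 for SQLE, -0.19 for HMGCS1 and -0.18 for HSD17B7, and all 5 overlapped between the breeds. Landrace sow 7 was the lowest non-pregnant sow for FDFT1 (9.80) and FDPS (10.17). The other non-pregnant sows lay at 10.67 or more for FDFT1 and 11.33 or more for FDPS. The test of the change in breed difference gave an unadjusted limma p of 0.0210 for FDFT1, 0.0421 for FDPS, 0.000663 for SQLE, 0.0336 for HSD17B7, 0.167 for HMGCS1 and 0.159 for SC5D, and none passed the adjustment. Over the whole lipid and sterol list, 1 of 35 measured genes was called (FDFT1), 8 were lower and 3 higher at an unadjusted p under 0.05. Over all genes 6.70% were lower and 5.03% higher at that p. The list's median was -0.13.

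**Figure D2:**
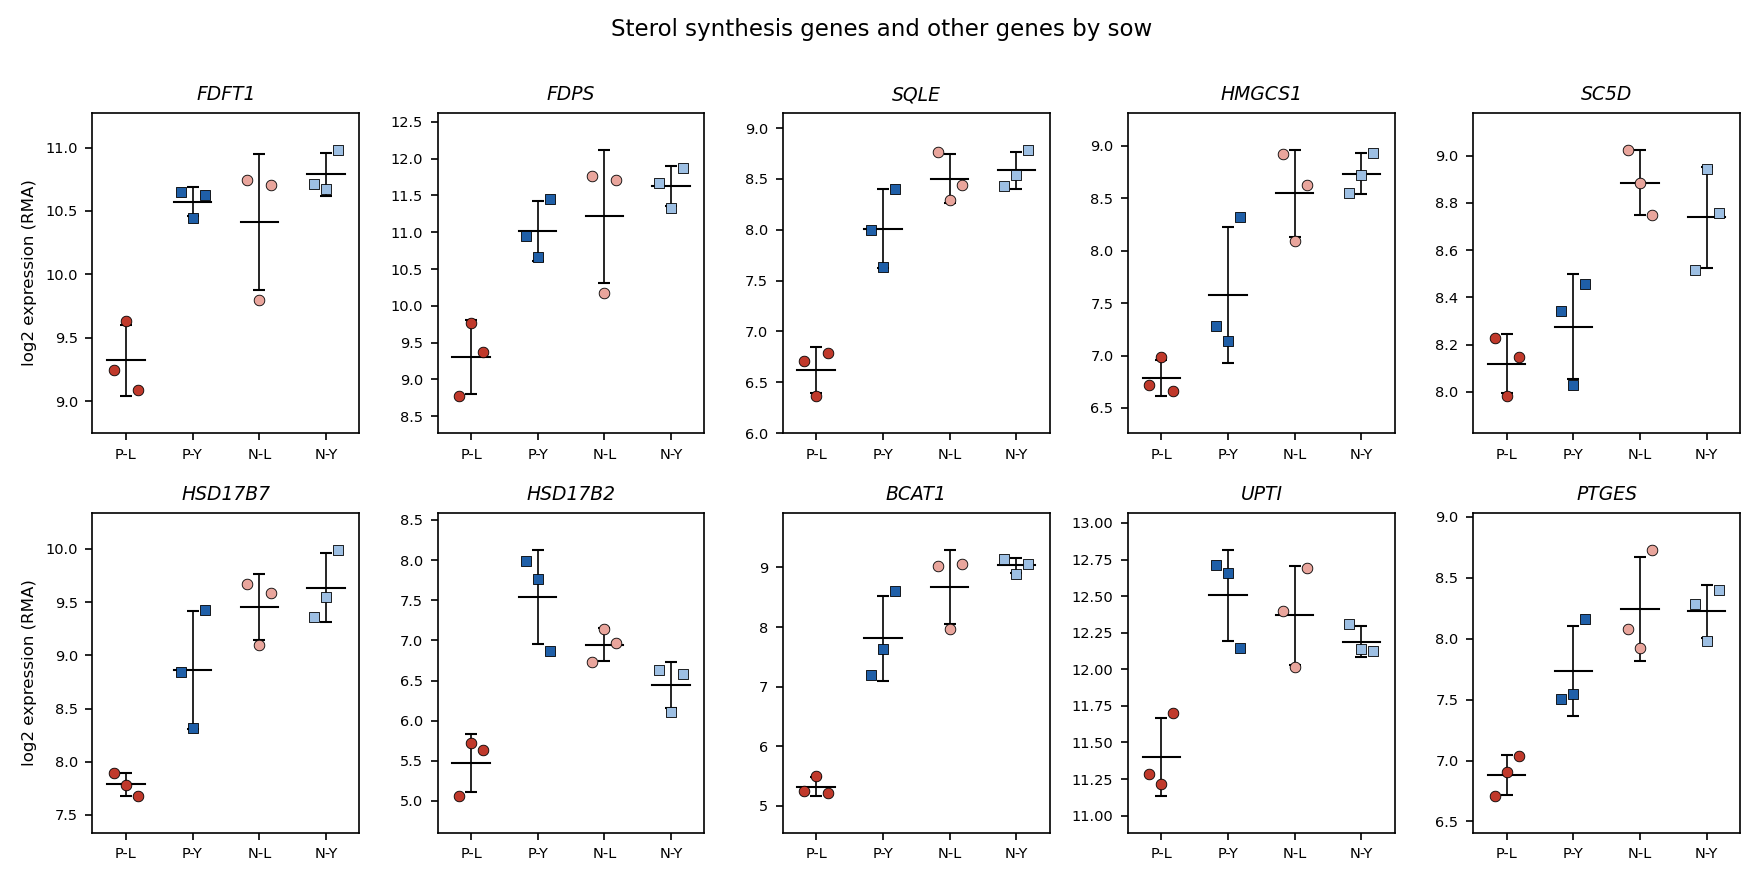
Enzymes of sterol synthesis (FDFT1, FDPS, SQLE, HMGCS1, SC5D and HSD17B7) and HSD17B2, BCAT1, UPTI and PTGES. The vertical axes show log2 expression (RMA) with a separate range for each gene, points are single sows (P-L pregnant Landrace, P-Y pregnant Yorkshire, N-L and N-Y the non-pregnant sows of each breed), horizontal bars are means and whiskers are ± 1 SD with n = 3. FDFT1 lies between 9.09 and 9.63 in pregnant Landrace sows and at 10.44 or more in pregnant Yorkshire sows.

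HSD17B2, which oxidises oestradiol to the weaker oestrone, had a wider breed difference than any other gene of the steroid list. It was at 5.06, 5.72 and 5.64 in Landrace and at 7.98, 7.77 and 6.87 in Yorkshire pregnant sows. The groups were separated by more than 1 log2 unit, with sow 12 the lowest Yorkshire sow. The difference was -2.07 ± 0.31 and missed the threshold (adjusted p = 0.0744). The fit over all 12 sows called it (adjusted p = 0.0115), as did the fit without sow 12, at -2.40 (adjusted p = 0.0301). The second probe set differed by -1.07. In non-pregnant sows HSD17B2 was higher in Landrace by 0.51 and not called, with breeds that did not overlap. PGR, the progesterone receptor, was at 6.34, 6.02 and 6.32 against 6.62, 6.75 and 6.58 (difference -0.42 ± 0.12, adjusted p = 0.264). None of the 15 measured genes of the list was called in the 6 pregnant sows, and the median was -0.08. At an unadjusted p under 0.05, 2 were lower, as were 6.70% of all genes.

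Amino acid and sugar handling showed uncalled differences in single genes. BCAT1, which transfers the amino group of branched-chain amino acids, was at 5.25, 5.50 and 5.22 in Landrace and at 7.20, 7.63 and 8.60 in Yorkshire sows. Its difference of -2.49 ± 0.33 lay just past the threshold (adjusted p = 0.0533), was called in the fit over all 12 sows (adjusted p = 0.0122), and was nearly matched by its second probe set (-2.33). In non-pregnant sows BCAT1 differed by -0.36 with overlapping breeds. SLC2A8, the glucose transporter GLUT8, was at 6.76, 8.16 and 7.15 against 9.18, 8.96 and 9.14 (difference -1.73 ± 0.33, adjusted p = 0.116). Without Landrace sow 8 the SLC2A8 difference was -2.13 and was called (limma adjusted p = 0.0222). Of 28 measured transport and amino acid genes none was called, and the median was 0.01. At an unadjusted p under 0.05, 4 were lower and 3 higher, where 6.70% and 5.03% of all genes were.

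Among genes of uterine secretion, UPTI, the plasmin and trypsin inhibitor that pig endometrium releases into the lumen, was at 11.28, 11.21 and 11.70 in Landrace and at 12.71, 12.66 and 12.15 in Yorkshire sows. The difference was -1.11 ± 0.20 (adjusted p = 0.106), called in the fit over all 12 sows (adjusted p = 0.0348). PIGR, which carries IgA across epithelium, was at 5.96, 6.24 and 5.89 against 6.63, 7.30 and 6.96 (difference -0.93 ± 0.19, adjusted p = 0.129). Neither gene's breeds overlapped. Of the 24 measured histotroph genes none was called, and the median was 0.06. At an unadjusted p under 0.05, 5 were lower and 4 higher, where 6.70% and 5.03% of all genes were.

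Matrix genes were lower in pregnant Landrace sows in 24 of 31 measured members, and none was called. MMP14, a membrane-bound collagenase activator, was at 7.71, 7.59 and 7.57 in Landrace and at 8.25, 8.50 and 8.39 in Yorkshire sows (difference -0.76 ± 0.11, adjusted p = 0.0640). COL6A3, a chain of type VI collagen, was at 10.66, 10.62 and 10.15 against 11.28, 11.73 and 11.64 (difference -1.07 ± 0.18, adjusted p = 0.0891). At an unadjusted p under 0.05, 10 matrix genes were lower and none was higher, where 6.70% of all genes were lower, and 9 had breeds without overlap in that direction, where 9.36% of all genes did. They included COL15A1 (-1.03), COL6A2 (-0.56), MMP2 (-0.34) and PLAU, the urokinase (-0.65). The list's median was -0.24, and -0.15 in the sows without conceptuses. Stromal fibroblast markers tended lower too, but they share members with the matrix list, so the lists are not independent. Of 9 measured markers 8 were lower in Landrace, with a median of -0.20 and per-sow mean levels of 9.39 to 9.71 in Landrace and 9.57 to 9.92 in Yorkshire sows. COL1A2 (-0.61) and DCN (-0.24) had the smallest p of these and were not called. In bulk tissue fewer cells of a type and less RNA per cell cannot be told apart, and the part of cell makeup in these values was not tested.

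The mean level of genes on the conceptus list varied more among Landrace than among Yorkshire pregnant sows, and the source of their RNA was not tested. IFNG was at 8.21, 4.26 and 12.65 in pregnant Landrace sows and at 4.20, 4.11 and 4.00 in pregnant Yorkshire sows, and non-pregnant sows had 3.61 to 4.41. It was thus above that level in sows 6 and 10 alone. The difference of 4.27 ± 1.81 was not called (adjusted p = 0.446). Sow 10 was also the highest of the 6 pregnant sows for other genes of early trophoblast. CYP11A1, which makes pregnenolone from cholesterol, was at 5.95 in sow 10 and between 3.68 and 4.02 in the others. HAND1, a trophoblast transcription factor, was at 8.26 against 5.50 to 5.82, and the transcription factors GATA3 and TFAP2C were at 7.58 and 6.07. IL1B, which the elongating conceptus makes in large amounts, was at 9.52 in sow 10 and 6.45 to 6.87 in the other pregnant sows, but also at 9.74 in non-pregnant sow 7. CYP19A1, aromatase, showed no such pattern (5.08 to 5.42).

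Over the 16 measured of 26 conceptus names, the mean level was 6.28, 6.11 and 7.55 in Landrace and 6.04, 6.09 and 6.02 in Yorkshire sows. None was called, 14 were higher in Landrace, and the median difference was 0.34. STAR, the cholesterol carrier of steroid-making cells, had the smallest p, at 4.42, 4.24 and 4.28 against 3.84, 4.03 and 3.97 (difference 0.37 ± 0.11, adjusted p = 0.264), all below the lower quartile of the arrays. Sow 12, whose array lay nearest to a non-pregnant one, had conceptus genes at the level of the other pregnant Yorkshire sows. IFNG and HAND1 in those sows lay within the range of non-pregnant sows, so these genes cannot tell sow 12 from a non-pregnant sow. The part of conceptus RNA in the breed differences was not tested.

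**Figure D3:**
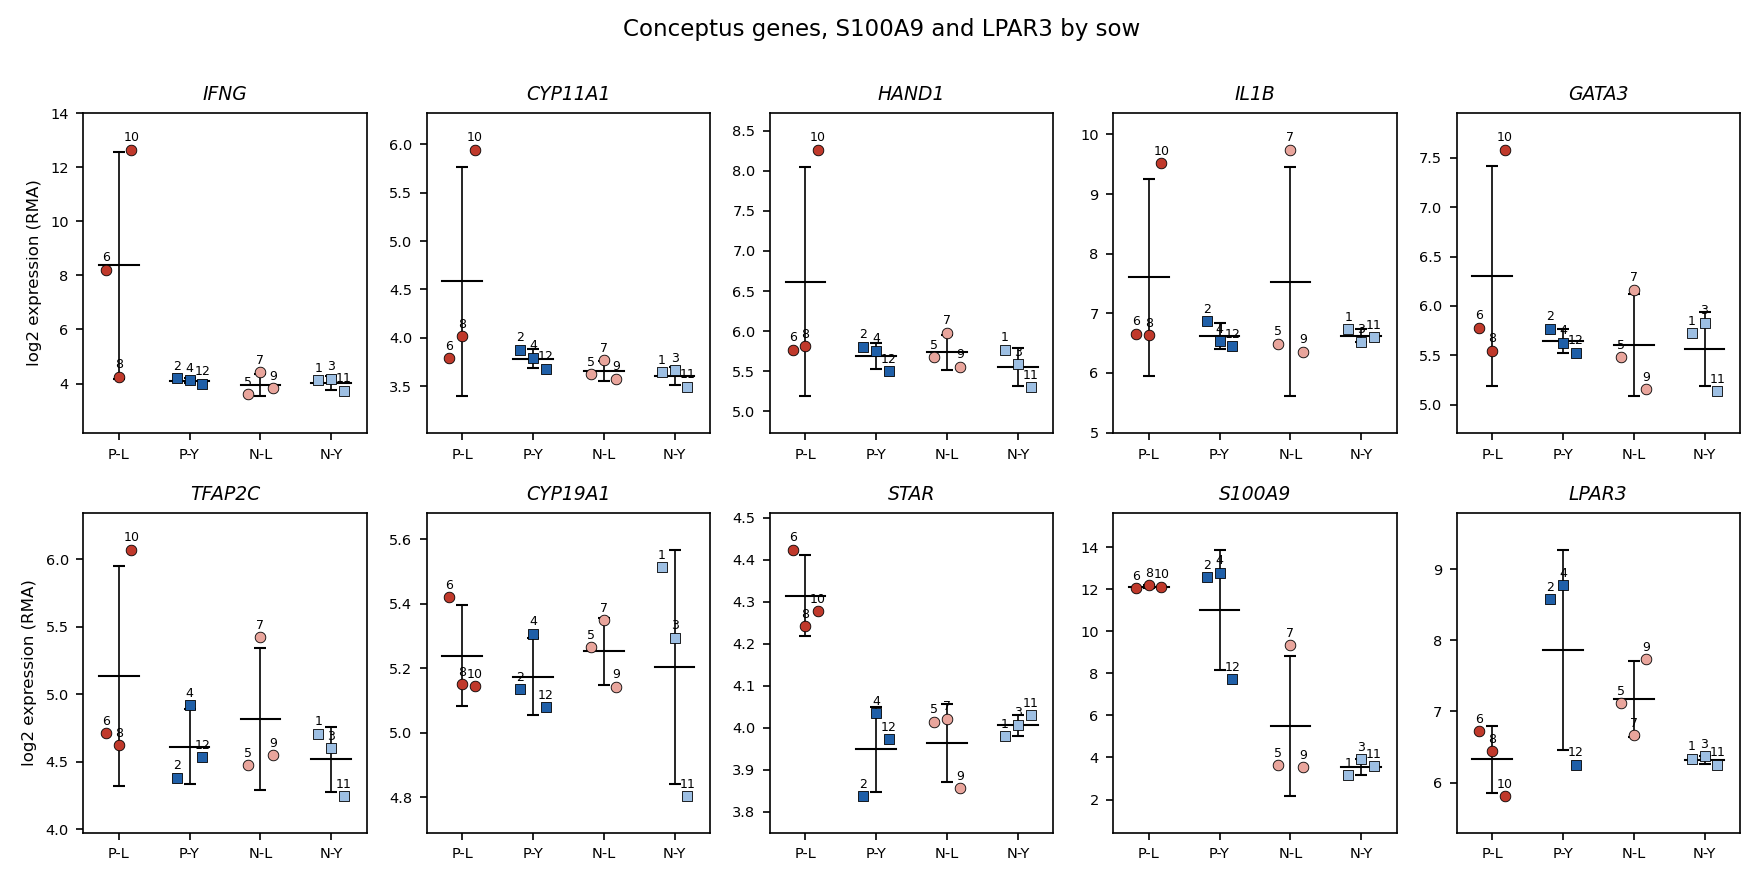
Conceptus genes, S100A9 and LPAR3 by sow. The vertical axes show log2 expression (RMA) with a separate range for each gene, points are single sows with their numbers (P-L pregnant Landrace, P-Y pregnant Yorkshire, N-L and N-Y the non-pregnant sows of each breed), horizontal bars are means and whiskers are ± 1 SD with n = 3. IFNG reaches 12.65 in sow 10 and 8.21 in sow 6 and stays at 4.41 or less in the other 10 sows, and S100A9 is at 7.72 in sow 12.

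The breed difference was also measured in the 6 non-pregnant sows, which shared no array with the pregnant ones. In them too the GAPDH 3' to 5' difference separated the breeds, at 0.44, 0.38 and 0.44 in Landrace sows 5, 7 and 9 and at 0.55, 0.66 and 0.77 in Yorkshire sows 1, 3 and 11. Its part in the agreement of signs was not tested. There 148 probe sets were called (0.617%). All 51 probe sets called in pregnant sows had the same sign in non-pregnant sows, where 64.8% of all probe sets did. Of the 51, 12 were called there too and 40 had breeds that did not overlap in the same direction, against 8.88% higher and 11.4% lower without overlap over all probe sets. All 13 called genes kept their sign in non-pregnant sows, as did 66.3% of all genes. Of the 13, EGLN1 and MPP7 were called there (0.71% of all genes were) and 8 did not overlap (22.1% of all genes did not). In the other direction, 139 of the 148 probe sets called in non-pregnant sows (93.9%) had the same sign in pregnant sows. Across all 6765 genes the 2 breed differences correlated at r = 0.513, a description over genes that are not independent. ACOT7 and FDFT1 had the smallest non-pregnant differences of the called genes, -0.36 and -0.37.

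**Figure D4:**
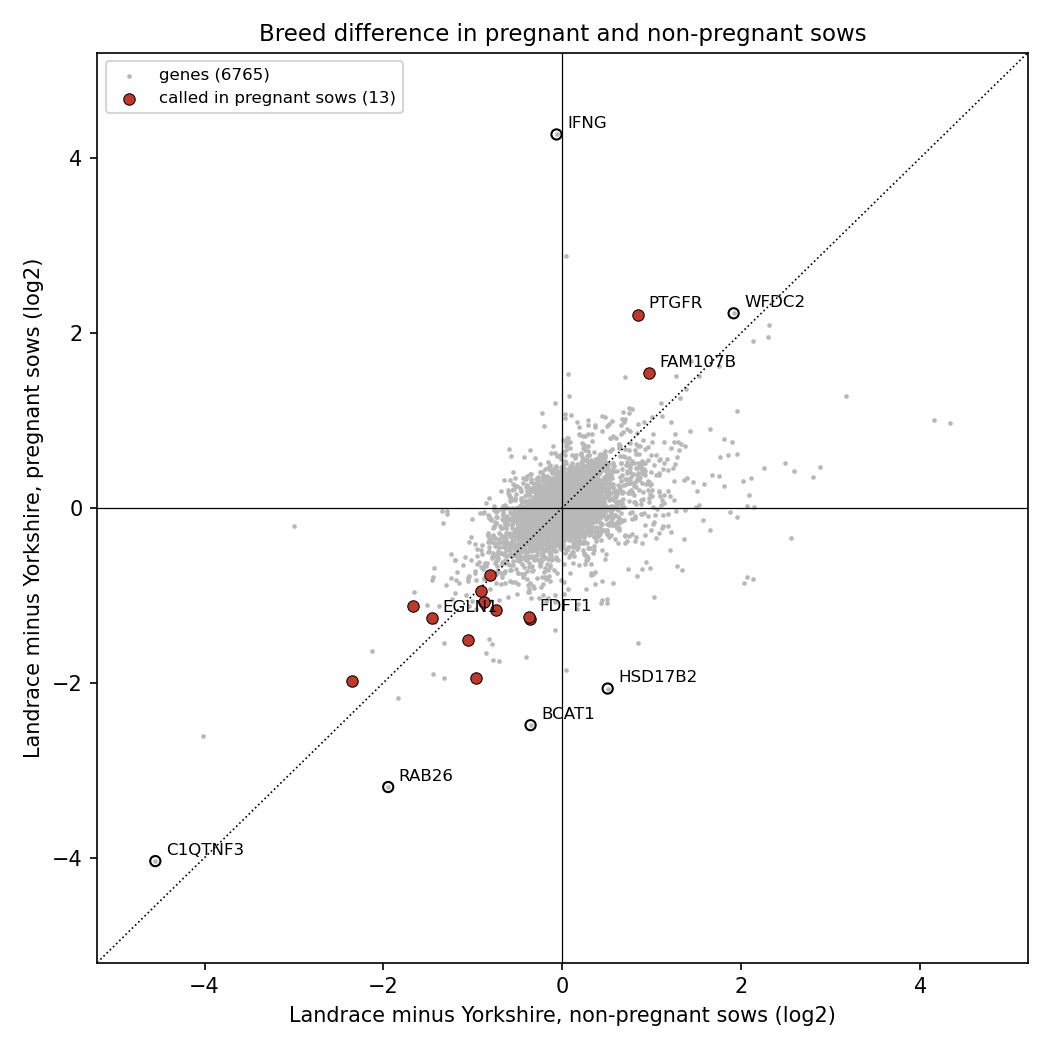
Breed difference (Landrace minus Yorkshire, log2) of 6765 genes in non-pregnant sows on the horizontal axis and in pregnant sows on the vertical axis. Grey points are genes, red points the 13 genes called in pregnant sows, open circles other named genes, and the dotted line marks equal differences. All 13 called genes have the same sign on both axes, HSD17B2 lies at -2.07 on the vertical and 0.51 on the horizontal axis, and IFNG lies near 0 in non-pregnant sows.

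No probe set was called for a change of the breed difference between pregnant and non-pregnant sows (limma, 4 groups), and 963 had an unadjusted p under 0.05 (4.01%). The genes with the smallest p were HSD17B2, MCUB and PTGFR. For HSD17B2 the change was -2.57 ± 0.39 (limma, unadjusted p = 3.702e-05, adjusted p = 0.444), with the breed difference lower in pregnant sows. MCUB, a subunit of the mitochondrial calcium channel, had a breed difference of 0.05 in pregnant sows and 0.88 in the others, a change of -0.83 ± 0.16 (limma, unadjusted p = 0.000250, adjusted p = 0.919). For PTGFR the change was 1.36 ± 0.27 (limma, unadjusted p = 0.000373, adjusted p = 0.919).

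Sow 12 decided this count. Without it 18 probe sets were called for the change of the breed difference, 2 upwards and 16 downwards, and without non-pregnant sow 5 there was 1. The 18 held 8 gene symbols, chosen here because they were called without sow 12. Both HSD17B2 probe sets were among them (-2.91 and -1.70, adjusted p = 0.0189 each). LPAR3, the lysophosphatidic acid receptor that acts in implantation, was at 6.72, 6.44 and 5.81 in Landrace and at 8.58, 8.78 and 6.25 in Yorkshire pregnant sows. Sow 12 lay among the Landrace sows. With all sows the LPAR3 breed difference was -1.54 ± 0.64 (adjusted p = 0.435), and without sow 12 it was -2.35 ± 0.26 (adjusted p = 0.0443). RAB27B, a GTPase of secretory vesicles, was at 6.75, 6.81 and 6.96 against 7.97, 7.94 and 5.31, and its breed difference moved from -0.23 to -1.11 without sow 12. NAP1L5, GLB1, CLEC1A and LOC100739163 were likewise called downwards and LOC641352 upwards.

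Without sow 12 the calls in pregnant sows took in further genes. GK, glycerol kinase, was at 4.39, 4.99 and 5.01 in Landrace and at 7.15, 7.81 and 6.13 in Yorkshire sows, and was called at -2.68 (adjusted p = 0.0334), as was its second probe set. With sow 12 the difference was -2.23 (adjusted p = 0.112). IFNAR1, a subunit of the type I interferon receptor, was at 8.37, 8.38 and 8.34 against 9.40, 9.69 and 8.95 and was called at -1.18 (adjusted p = 0.0346). IL10RB, a subunit of the receptors for interleukin 10 and interferon lambda, was at 7.06, 7.28 and 6.97 against 8.12, 8.18 and 7.63 and was called at -1.04 (adjusted p = 0.0485). With all 6 sows neither was called (adjusted p = 0.115 and 0.125). With sow 12 the breeds did not overlap for these 3 genes, as for 17.5% of all genes. The 3 genes were chosen because they were called without sow 12, so this separation is a description.

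**Figure D5:**
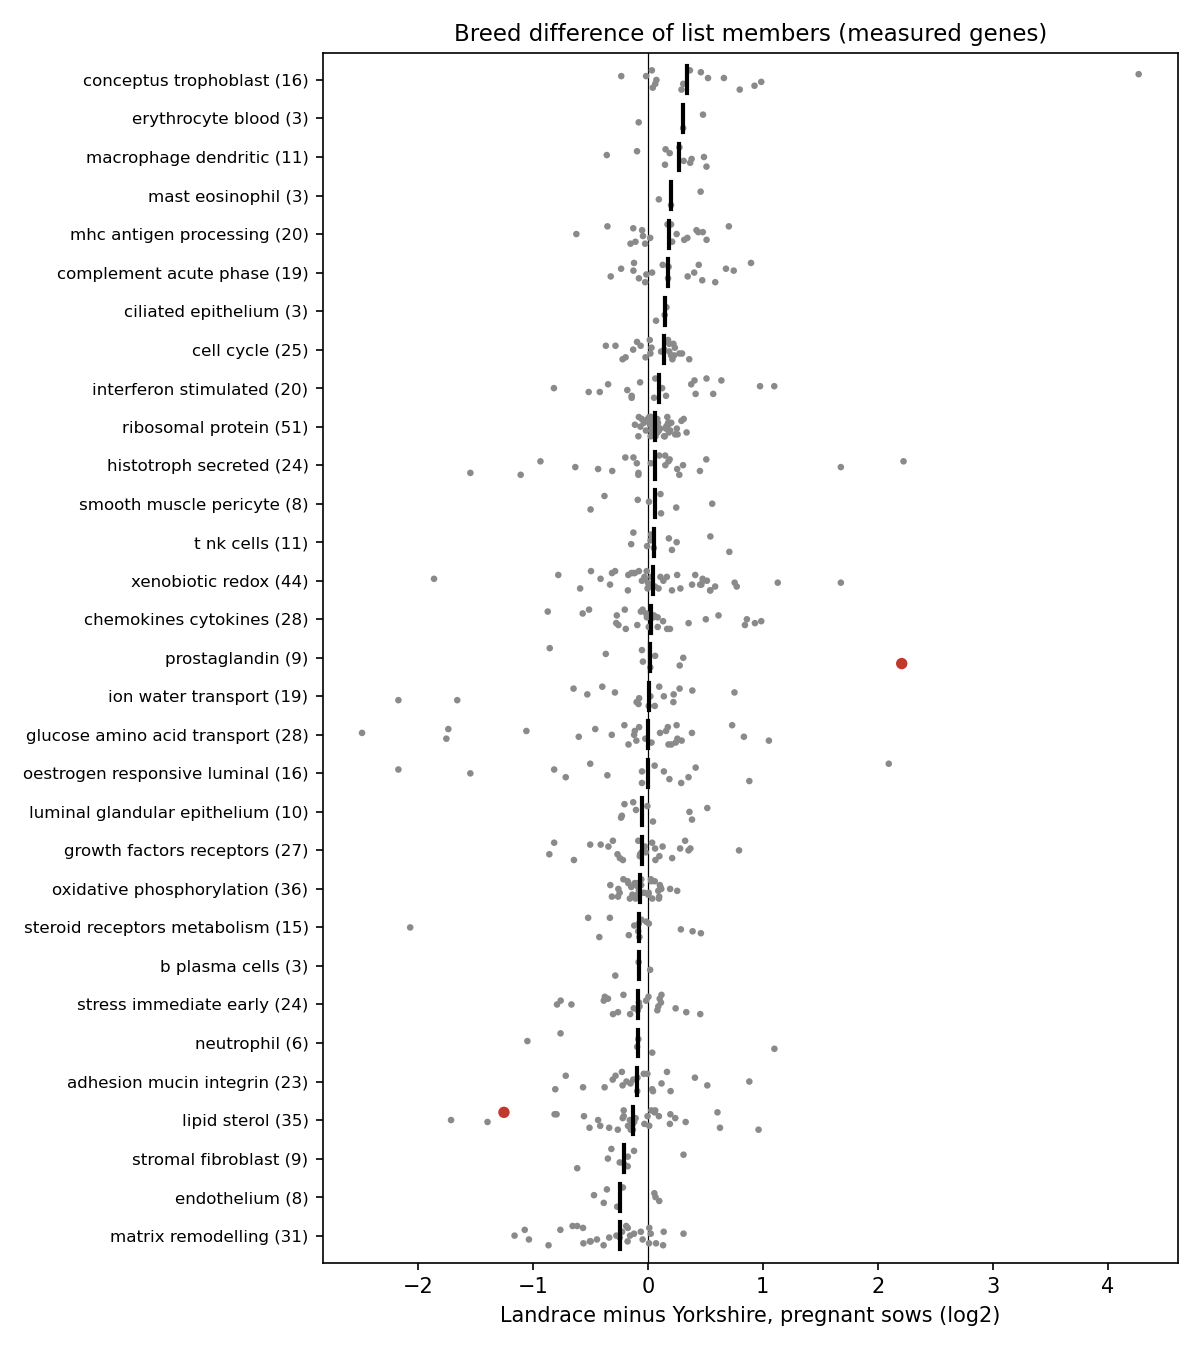
Breed difference in pregnant sows (Landrace minus Yorkshire, log2, horizontal axis) of each measured gene of 31 lists, 1 row per list with the number of measured genes in brackets. Grey points are genes that were not called, larger red points called genes (PTGFR and FDFT1), and black bars list medians, which lie between -0.24 for matrix remodelling and 0.34 for conceptus genes.

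Interferon-stimulated genes answer the interferons of the conceptus. Of 20 measured genes none was called or had an unadjusted p under 0.05, the median was 0.09, and OAS1 (0.98) and STAT2 (0.64) had the smallest p. OAS1 was at 10.19, 11.05 and 9.46 in Landrace and at 8.45, 9.11 and 10.20 in Yorkshire sows, so the breeds overlapped. The antigen presentation list held no call among 20 genes (median 0.19), with SLA-2 (-0.35) and SLA-3 (-0.62) of the smallest p. Chemokines and cytokines held none among 28 (median 0.03), with CCL21 at 0.93 and IL10RB at -0.87. Complement and acute phase genes held none among 19 (median 0.18), with C7 at 0.44 and C3 at 0.90, although a second C7 probe set differed by -0.78.

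Immune cell markers held no calls. The medians were 0.27 over 11 macrophage and dendritic markers (CD163 -0.36, TYROBP 0.38), 0.05 over 11 T and NK cell markers (CD2 0.71, KLRK1 0.54) and -0.09 over 6 neutrophil markers (S100A8 -1.05, S100A12 -0.76). They were 0.20 over 3 mast cell and eosinophil markers (KIT 0.46, GATA2 0.20), -0.08 over 3 B and plasma cell markers (CD79B -0.28, JCHAIN -0.08) and 0.31 over 3 erythrocyte markers (ALAS2 0.48, AHSP 0.31). The per-sow mean of the neutrophil markers was 6.10 to 6.66 in Landrace and 5.14 to 7.15 in Yorkshire sows, with sow 12 the lowest. Of these markers 2 were higher and 4 lower in Landrace, and S100A9 differed by 1.10. Without sow 12 the differences were -0.55 for S100A9, -2.22 for S100A8 and -1.60 for S100A12.

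Markers of the tissue's own cells also held no calls. The 10 epithelial markers had a median of -0.05 (CLDN3 0.52, EPCAM -0.23), the 3 ciliated cell markers 0.15 (TEKT1 0.16, TPPP3 0.15) and the 8 smooth muscle and pericyte markers 0.06 (SMTN -0.38, TAGLN 0.56). The 8 endothelial markers had a median of -0.24. PECAM1 (-0.47) and TIE1 (-0.36) were both lower at an unadjusted p under 0.05, as were 6.70% of all genes.

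The remaining lists held no calls either. Xenobiotic and redox genes were higher in 9 and lower in 2 of 44 at an unadjusted p under 0.05, where 5.03% and 6.70% of all genes were, with a median of 0.05. By sign alone 25 of the 44 were higher and 19 lower, with differences from -1.86 to 1.68. Among them MGST3 (0.48) and CAT, catalase (0.47), had the smallest p. GPX3 (1.68), with overlapping breeds, and PRDX1 (1.13) had the largest higher values. Ribosomal protein genes were higher in 41 of 51, by a median of 0.07, with RPS9 at 0.34 and RPL19 at 0.31. The median was 0.14 over 25 cell cycle genes (CDKN2C -0.22, TYMS -0.28) and -0.07 over 36 oxidative phosphorylation genes (NDUFB2 -0.31, SDHB 0.26). It was -0.08 over 24 stress genes (HSP90AA1 -0.38, HSPH1 -0.66). At an unadjusted p under 0.05, 5 stress genes were lower and 1 higher, beside the 6.70% and 5.03% of all genes.

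Growth factor and transport lists closed the set. The 27 growth factors and receptors had a median of -0.05. At an unadjusted p under 0.05, 4 were lower and 1 higher, where 6.70% and 5.03% of all genes were. EGF, the epidermal growth factor, was at 4.92, 4.92 and 5.23 in Landrace and at 5.58, 5.76 and 6.32 in Yorkshire sows (difference -0.86 ± 0.20, adjusted p = 0.188). FGFR2, a receptor of fibroblast growth factors, differed by -0.50. The ion and water transport list had a median of 0.01 over 19 genes, with SCNN1A, a subunit of the epithelial sodium channel, at -0.40 and ATP1B3 at -0.65. Adhesion and mucin genes had a median of -0.09 over 23, with LGALS3 at -0.56 and SPP1, osteopontin, at -0.71. Oestrogen-responsive luminal genes had a median of 0.00 over 16, and SPP1 and FGFR2 again had the smallest p.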

How the data were processed

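Endometrial RNA of 12 sows was measured on Affymetrix porcine arrays, 1 per sow. The deposited table holds log2 expression, and RMA, affy and limma are named without versions in the submitters' processing notes. RMA gives all arrays the same distribution, so a difference is relative to the rest of its array, and changes of weakly expressed genes are understated. Of 24123 probe sets, 124 with the manufacturer's AFFX control prefix were left out. In the platform annotation 10069 of the rest had 1 symbol, 198 several and 13732 none. A gene with several probe sets (2261 of 6765) was represented by that of highest average level. Coordinates are not printed, since the array's genome build is not given in the sources used here.

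Breeds were compared by two-sided moderated tests (limma 3.58.1, R 4.3.3; lmFit, then eBayes) over the 6 pregnant arrays, with 4 residual degrees of freedom and Benjamini-Hochberg adjustment over 23999 probe sets at 0.05. Non-pregnant sows were fitted alike, and the change of the breed difference came from 4 group means with 8 residual degrees of freedom. The procedure was tested on simulated data. Each sow is 1 replicate, and the number of arrays limits the precision.

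Alternatives were the 4-group fit, cyclic loess, median centring, a filter on dim probe sets, a robust prior with an intensity trend, array weights, the GAPDH covariate, other thresholds, other probe sets and leaving out each sow. The comparison and the 31 lists (817 names, 561 measured) were chosen with earlier results of these data known. Named genes were all called genes, filled to 10 higher in Landrace with the largest uncalled differences at an unadjusted p under 0.01 without overlap, then up to 4 called members of each list or, with none called, the 2 with the smallest p, and the 3 with the smallest p for the change of the breed difference. Others were chosen after their values were seen: further sterol, prostaglandin, conceptus, matrix and redox genes, S100A9, C1QTNF3, RAB26, and genes with other called probe sets or called without sow 12.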

Additional observations from a re-analysis of the deposited data

How the results depend on the processing

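Of the 51 calls in pregnant sows, 48 remained with cyclic loess, 47 with median centring, 46 with an intensity trend and robust prior and 37 with dim probe sets left out, where 9 were higher. Array weights called 285 probe sets (100 higher, 185 lower), 4 group means over 12 sows 176 (67 and 109), the GAPDH covariate 4 (2 and 2), a threshold of 0.01 called 1 (1 and 0) and a threshold of 0.10 called 158 (50 and 108). Leaving out 1 sow gave 1 to 75 calls (1 to 23 higher, 0 to 53 lower). Non-pregnant sows had 148 calls (61 and 87), 250 with 4 group means (95 and 155), and 11 to 214 without 1 sow (3 to 102 and 8 to 112). The change of the breed difference had 0 calls, and 0 to 18 without 1 sow (0 to 2 upwards, 0 to 16 downwards).

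Breed differences that turned sign were few and belonged, apart from SON, to genes that were not called. In other probe sets of the same gene they were -0.22 for WFDC2, -0.0502 for PTP4A2, -0.15 for VMO1, 0.33 for SON, 0.0194 for TYMS, -0.78 for C7, 0.0313 for UPTI, -0.25 for GATA2, 0.40 for HSP90AA1, 0.0497 for DCN and -0.11 for CYP19A1. With the GAPDH covariate they were 0.0810 for JCHAIN, 0.12 for TYMS, -0.20 for TPPP3, -0.14 for ALAS2, 0.18 for EGF, -0.30 for CYP19A1, -0.66 for S100A9 and 0.0527 for GLUL, and with array weights 0.12 for JCHAIN, -0.0073 for MCUB and -0.0328 for S100A9. Without 1 sow JCHAIN ranged from -0.32 to 0.20, TPPP3 from -0.15 to 0.31, GATA2 from -0.0032 to 0.48, MCUB from -0.0552 to 0.11, CYP19A1 from -0.0259 to 0.13 and S100A9 from -0.55 to 1.98. The causes were not tested.

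No paired analysis was possible because the numbers in the labels run from 1 to 12 and no number is shared between groups.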
